A study of Mus musculus with 4 samples.

Results

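The immediate early genes Jun, Fos, Junb, Fosb, Egr1, Ier2, Ier3 and Atf3 were followed across 4 mouse expression arrays. They were taken as the probe sets annotated to 1 gene only, which gave 9 probe sets for 8 genes, out of 45037 probe sets and 18193 genes on the array. Of the arrays, 3 held embryonic stem cell (ESC) lines, called lines 3, 1 and 2 here, that were derived from cloned blastocysts after nuclear transfer (NT), and 1 held the donor of the nuclei, a clone of induced pluripotent stem cells (iPSC) to which tail-tip fibroblasts had been reprogrammed by adenovirus. All cells were grown alike, in medium with LIF and 15% fetal bovine serum, over irradiated embryonic fibroblasts of the mouse as feeders, and before RNA was taken they were trypsinized and plated for 45 minutes so that the fibroblasts would attach and be left behind. The donor is 1 clone, the labels call each line a subclone of it, and no line had a second array.

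Immediate early genes are switched on within minutes by growth factors, serum or cell stress, from factors already present in the cell and without new protein synthesis. Jun, Junb, Fos and Fosb encode subunits of AP-1, a dimer of Jun and Fos family proteins that binds DNA, and Atf3 encodes a related stress-induced factor that also binds Jun proteins. Egr1 is a zinc finger factor downstream of ERK and serum response factor, Ier2 is a nuclear protein induced by serum, and Ier3 is an early response protein that affects ERK signalling and cell survival. Their transcripts are short-lived, and handling of cells such as trypsin treatment is known to induce them.

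Levels below are log2 intensities with the mean of each array set to an assumed 7, a value that the deposited table does not hold. A mean of 6 makes each log2 difference 14.3% smaller, and a mean of 7.86 makes it 12.3% greater. Over all probe sets the median was 6.83. The 11747 genes whose mean reached this median are called bright, and all 8 immediate early genes were among them. Levels of different probe sets were not compared. The 10 pluripotency markers were bright, with a mean level of 12.12 in line 3, 12.12 in line 1, 12.16 in line 2 and 12.13 in the clone. Fibroblast and feeder markers were also present: 13 of 16 were bright (Lum, Pdgfra and Pdgfrb were not). The log2 levels of all 16 summed to 143.2 in line 3, 144.2 in line 1, 145.8 in line 2 and 143.4 in the clone. Such a sum hides opposite differences. Relative to the other arrays, Tagln (-0.69) and Acta2 (-0.49) were lower in line 3, and the dim Pdgfrb (0.22) and Lum (0.20) were higher. The part of remaining fibroblasts in the results below was not tested. Fewer cells of a type and less RNA per cell cannot be told apart in such bulk samples.

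The promoter sequences of 4 members are shown because these members took different courses in line 3. Jun and Fosb were lowest there and Atf3 was highest. Fos was lowest there too, but only by 0.10. Promoters of 6 of the 8 members were found in the RefSeq table of build GRCm38.p6, each 300 bases long, from 250 bases before the gene's start to 50 after it. Those shown lie at chr4:95052173-95052472 (Jun, minus strand), chr7:19309996-19310295 (Fosb, minus strand), chr12:85473640-85473939 (Fos, plus strand) and chr1:191183284-191183583 (Atf3, minus strand). They run 5′ to 3′ along the gene, and capitals mark matches to TGACNTCA, TGACG or TATAAA on either strand.
Jun: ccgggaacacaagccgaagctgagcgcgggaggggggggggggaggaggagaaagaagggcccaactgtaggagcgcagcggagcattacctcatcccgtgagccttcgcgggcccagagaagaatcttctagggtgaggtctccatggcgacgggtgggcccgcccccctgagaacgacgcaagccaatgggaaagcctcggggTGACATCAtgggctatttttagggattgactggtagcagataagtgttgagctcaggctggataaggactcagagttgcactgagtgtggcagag
Fosb: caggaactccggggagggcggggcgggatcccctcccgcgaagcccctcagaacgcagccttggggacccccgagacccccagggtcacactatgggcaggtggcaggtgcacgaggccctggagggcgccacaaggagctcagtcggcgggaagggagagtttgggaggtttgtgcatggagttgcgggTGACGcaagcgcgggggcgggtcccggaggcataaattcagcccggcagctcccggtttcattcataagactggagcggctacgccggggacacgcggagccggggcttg
Fos: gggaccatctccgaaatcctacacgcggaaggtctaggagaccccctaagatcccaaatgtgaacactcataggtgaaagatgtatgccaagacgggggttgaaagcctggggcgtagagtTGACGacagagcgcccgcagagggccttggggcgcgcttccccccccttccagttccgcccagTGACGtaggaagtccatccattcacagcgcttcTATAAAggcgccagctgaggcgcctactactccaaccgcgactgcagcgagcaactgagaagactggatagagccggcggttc
Atf3: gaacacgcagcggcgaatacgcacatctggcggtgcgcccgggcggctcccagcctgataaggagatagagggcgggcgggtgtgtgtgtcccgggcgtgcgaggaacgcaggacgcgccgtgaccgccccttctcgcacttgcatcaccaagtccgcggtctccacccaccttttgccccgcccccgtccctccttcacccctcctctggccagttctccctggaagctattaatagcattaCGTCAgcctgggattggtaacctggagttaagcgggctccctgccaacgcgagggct

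Both strands of each promoter were searched for the cyclic AMP response element TGACGTCA, the same element with any base at its middle (TGACNTCA, which includes the first), its core TGACG (also contained in the first), the AP-1 site TGANTCA, the CArG box of serum response factor and TATAAA. The Jun promoter held 1 TGACNTCA, at -45 to -38 from the start, and 8.83% of all 32851 promoters held one. TGACG was found in the promoters of Fos (2 matches), Fosb, Junb and Atf3 (1 each), against 20.8% of all promoters. TATAAA stood at -33 to -28 in Fos and at 1 to 6 in Junb, against 13.6% of all promoters. None of the 6 windows held TGACGTCA (1.79% of all promoters), TGANTCA (7.81%) or a CArG box (1.63%). No promoter was found for Egr1 or Ier2, and sites more than 250 bases before a start were not searched. The search therefore cannot show that a gene lacks such a site. The motifs were chosen after the sequences had been read, and a match is not a measured binding site.

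Jun had its lowest level in NT-ESC line 3. This was known when the genes were chosen, so the values of Jun in line 3, its p included, are a description and no independent test. Its brighter probe set, 1417409_at, read 8.49 in line 3, against 9.17 in line 1, 9.08 in line 2 and 9.07 in the clone. Line 3 stood 0.57 under the nearest array, while the other 3 arrays lay close together, with an SD of 0.06. In the deposited log2 values as given, Jun differed by -0.10 in line 3. Read as levels, the log2 difference was -0.61 ± 0.09 (SE), which is 1.53-fold lower in line 3 than the mean of the other arrays. It was 1.44-fold to 1.61-fold lower over the range of assumed array means, a range that covers this mean only. Limma's test, with the spread of the other 3 arrays taken for line 3 as well, gave a Benjamini-Hochberg adjusted p of 0.0431 over 18193 genes. A difference as low as that of Jun was found in 80 bright genes (0.681%), and 1.86% of bright genes were lowest in line 3 by at least 0.3, as Jun was. For beta-actin the 3′ control probe set exceeded the 5′ one, a measure of RNA integrity, by 0.293 in line 3, against 0.276 in line 1, 0.421 in line 2 and 0.218 in the clone, so that line 3 lay within the range of the others.

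**Figure D1:**
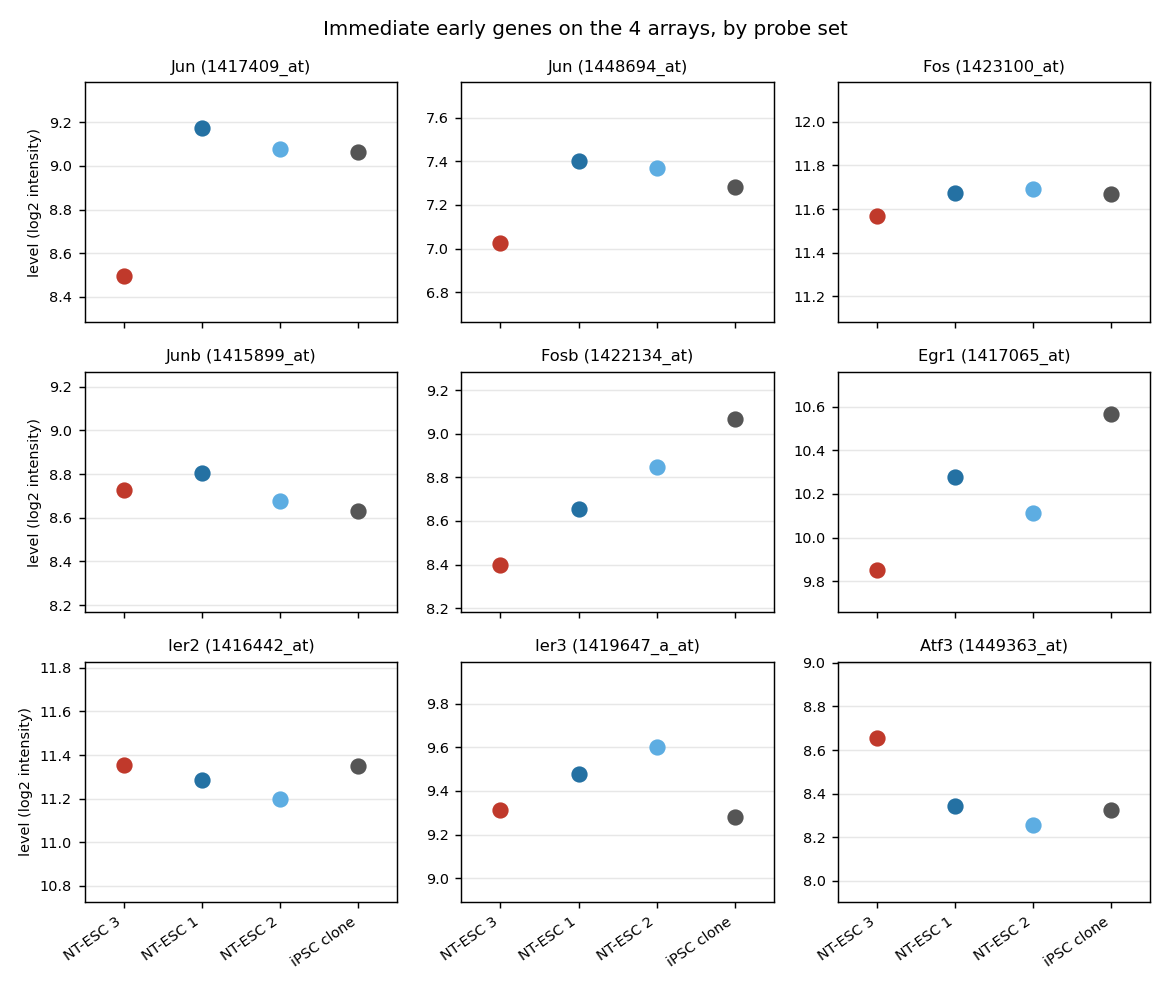
Level (log2 intensity, vertical axis, each panel spanning the same range) of the 9 probe sets of the 8 genes on the 4 arrays, 1 point per array. Jun is lowest in NT-ESC line 3 by both probe sets (8.49 and 7.02), Fosb and Egr1 are highest in the iPSC clone (9.07 and 10.57), and Atf3 is highest in line 3 (8.65).

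The dimmer Jun probe set, 1448694_at, gave the same order of arrays. It read 7.02 in line 3, against 7.40 in line 1, 7.37 in line 2 and 7.28 in the clone. Its log2 difference of -0.33 was not called when all 45037 probe sets were fitted together, a fit that called 0.104% of probe sets (limma, Benjamini-Hochberg adjusted p = 0.31, unadjusted p = 0.00932), and the brighter Jun probe set was not called in that fit either (limma, adjusted p = 0.0932). Jun was also not called when any 1 of the other arrays was left out (limma, adjusted p = 0.573 without line 1, 0.597 without line 2 and 0.348 without the clone), with differences of -0.58 to -0.63. No gene at all was called in those fits, which have 1 residual degree of freedom. Among all genes, 55 (0.302%) were called lower in line 3 and 29 (0.159%) higher, 0.462% in all, and of the 8 members 1 was called lower and 0 higher.

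The other Jun family member on the list did not follow Jun. Junb, which can replace Jun in AP-1, read 8.73 in line 3, against 8.81 in line 1, 8.68 in line 2 and 8.63 in the clone, so that line 3 lay within the range of the others. Its log2 difference in line 3 was 0.02, with a 95% interval of -0.20 to 0.25 (limma, Benjamini-Hochberg adjusted p = 0.97). The interval does not reach the difference found for Jun, but the difference between the genes was not itself tested. Junb lies on chromosome 8, whose bright genes had a median log2 difference of 0.27 in line 3.

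Of the Fos family, Fos was nearly level and Fosb was not. Fos, the usual partner of Jun in AP-1, read 11.57 in line 3, against 11.68 in line 1, 11.69 in line 2 and 11.67 in the clone. Line 3 was lowest by 0.10, and line 1 and the clone were 1 rounding step of the deposited values apart. The log2 difference of Fos in line 3 was -0.11, with a 95% interval of -0.29 to 0.08 (limma, Benjamini-Hochberg adjusted p = 0.719).

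Fosb, a Fos family protein that also dimerizes with Jun, read 8.40 in line 3, 8.65 in line 1 and 8.85 in line 2, against 9.07 in the clone. All 3 NT-ESC lines were lower than the clone, and line 3 was the lowest of the arrays. The NT-ESC lines averaged 8.63 ± 0.22 (SD, n = 3), and their log2 difference from the clone was -0.43 ± 0.17 (SE). That difference did not pass over all genes (limma, unadjusted p = 0.0495, Benjamini-Hochberg adjusted p = 0.856). Set against the mean of the other 3 arrays, line 3 differed by -0.46 ± 0.15 (SE), with a 95% interval of -0.81 to -0.10, and this did not pass either (limma, unadjusted p = 0.018, adjusted p = 0.286).

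Egr1, a factor that relays ERK signals to its target genes, had the widest spread of the 8 genes, 0.71 between the highest and the lowest array. It read 9.85 in line 3, 10.28 in line 1 and 10.11 in line 2, against 10.57 in the clone. As for Fosb, the clone was highest and line 3 lowest. The NT-ESC lines averaged 10.08 ± 0.21 (SD, n = 3), a log2 difference of -0.48 ± 0.17 (SE) relative to the clone, which did not pass over all genes (limma, unadjusted p = 0.0292, Benjamini-Hochberg adjusted p = 0.856). Lines 1 and 2 were 0.16 apart, within the SD of the lines. For line 3 against the other 3 arrays the log2 difference was -0.47 ± 0.16 (SE), with a 95% interval of -0.85 to -0.09 (limma, unadjusted p = 0.0226, adjusted p = 0.317).

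Ier2 differed little between the arrays. It read 11.36 in line 3, 11.29 in line 1 and 11.20 in line 2, against 11.35 in the clone, and line 3 and the clone were 1 rounding step apart. The 95% interval of its log2 difference was -0.30 to 0.16 for the NT-ESC lines against the clone and -0.14 to 0.29 for line 3 against the other arrays (limma, Benjamini-Hochberg adjusted p = 0.935 and 0.858).

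Ier3 was lowest in the clone, but close to line 3. It read 9.31 in line 3, 9.48 in line 1 and 9.60 in line 2, against 9.28 in the clone. The lines averaged 9.46 ± 0.14 (SD, n = 3), and the log2 difference from the clone was 0.18 ± 0.12 (SE; limma, Benjamini-Hochberg adjusted p = 0.876). Line 2 had the highest level, 0.24 above the mean of the other arrays (limma, unadjusted p = 0.0668, Benjamini-Hochberg adjusted p = 1.00).

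Atf3, whose protein is induced by stress and can repress as well as activate genes, ran opposite to Jun in line 3. It read 8.65 in line 3, against 8.34 in line 1, 8.26 in line 2 and 8.32 in the clone. Line 3 stood 0.31 above the nearest array, and the other arrays had an SD of 0.05. The log2 difference was 0.35 ± 0.08 (SE), or 1.27-fold higher in line 3, and did not pass over all genes (limma, unadjusted p = 0.00407, Benjamini-Hochberg adjusted p = 0.143). Of the bright genes, 407 (3.46%) had a difference as high, and 2.85% were highest in line 3 by at least 0.3, as Atf3 was.

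**Figure D2:**
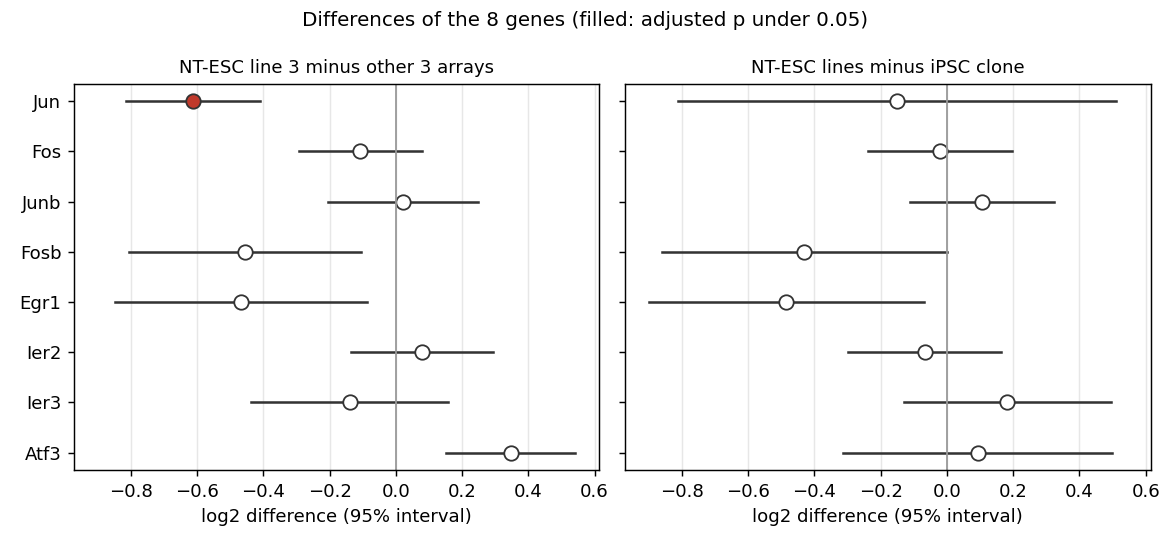
Log2 difference of each of the 8 genes (points) with its 95% interval from limma (lines), for NT-ESC line 3 minus the other 3 arrays (left) and for the 3 NT-ESC lines minus the iPSC clone (right); the filled point has a Benjamini-Hochberg adjusted p under 0.05. Jun in line 3, at -0.61, is the filled point and was known to be lower there when the genes were chosen, and the intervals of Fosb, Egr1 and Atf3 in line 3 also lie to 1 side of 0 without passing the adjusted test.

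The counts of the members are given beside those of all genes. They include Jun, whose low level in line 3 was known when the genes were chosen, so they are a description and no test. Line 3 was the lowest array for 4 of the 8 members (Jun, Fos, Fosb and Egr1), against 28.8% of all genes and 31.1% of bright genes, and the highest for Ier2 and Atf3, against 25.7% and 26.7%. At an unadjusted p under 0.05 line 3 differed for 4 of 8 members (Jun, Fosb and Egr1 lower, Atf3 higher), against 11.6% of all genes, of which 5.76% were lower and 5.8% higher. A range of at least 0.5 over the 4 arrays was found for 3 members (Jun, Fosb and Egr1), against 5.24% of bright genes and 4.21% of all genes. The median log2 difference of the members in line 3 was -0.12, and -0.01 over all genes.

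The comparison that the series was built for, of NT-ESC lines with their iPSC donor, called no gene (limma, Benjamini-Hochberg adjusted p under 0.05 for 0% of 18193 genes; 5.53% had an unadjusted p under 0.05, 2.07% being lower in the lines, as were 2 of 8 members, Fosb and Egr1). The clone was the highest array for these 2 members, against 26.7% of all genes, and the lowest for Junb and Ier3, against 24.7%. The median log2 difference of the 8 members was -0.04. For Jun, Fos and Atf3 the sign of the difference turned without line 3, with Jun at -0.15 over all 3 lines and 0.06 without line 3. With 1 array against 3, the smallest p that an exact permutation test over arrays can give is 0.25. Line 1 and line 2, each set against the other 3 arrays, had 0% of genes called by limma and no member with an unadjusted p under 0.05, against 2.77% and 2.33% of all genes. The 4 comparisons use the same arrays and are not independent.

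Junb and Ier2 are genes of chromosome 8. The 636 bright genes of that chromosome had a median log2 difference of 0.27 in line 3, against -0.02 for 11064 bright genes of other chromosomes, and line 3 was the highest array for 82.1% of them. Junb, at 0.02, stood below this median, and 10.5% of the bright chromosome 8 genes had a lower difference. Ier2, at 0.08, stood below it as well, with 21.2% of those genes lower. Line 3 was the highest array for Ier2 by 1 rounding step and was not the highest for Junb. The other 6 members lie on chromosomes 4 (Jun), 12 (Fos), 7 (Fosb), 18 (Egr1), 17 (Ier3) and 1 (Atf3). Btg2, Nab1 and Creb1, named below as higher in line 3, also lie on chromosome 1, which was pooled here with the other chromosomes. Whether chromosome 1 as a whole, or a stretch of it, differed in line 3 was not tested. With chromosome 8 left out of the fit, the log2 difference of Jun was the same, -0.61, and its limma adjusted p over the fewer genes was 0.0535.

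**Figure D3:**
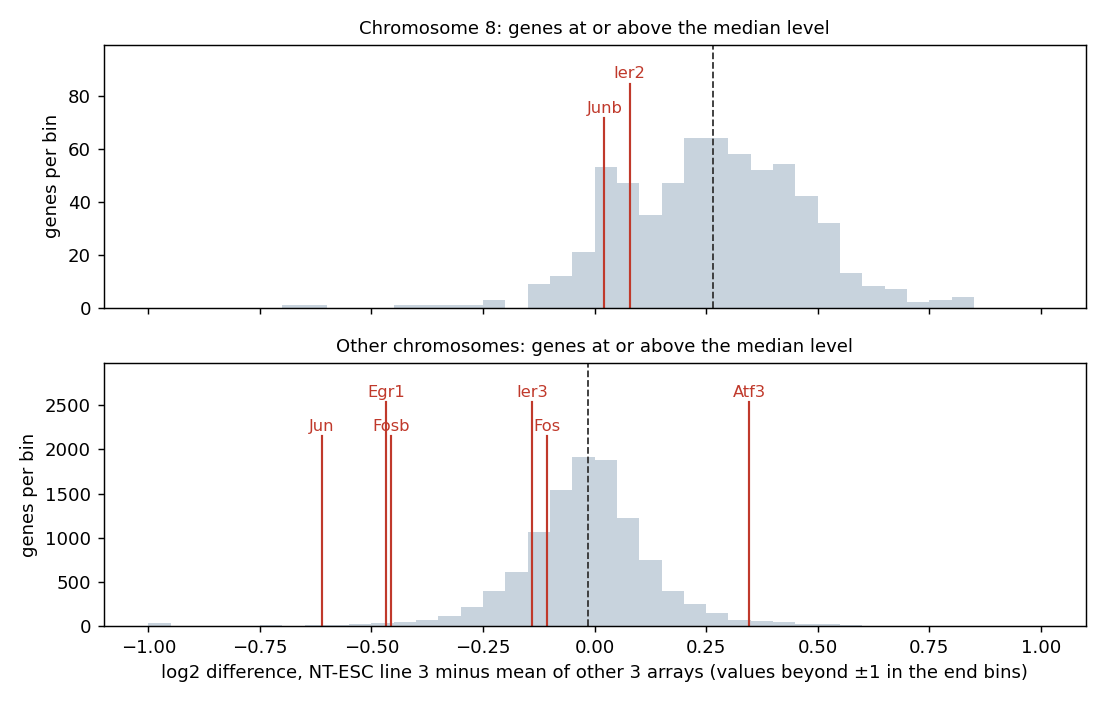
Number of bright genes (vertical axis) by log2 difference of NT-ESC line 3 minus the mean of the other 3 arrays (horizontal axis), for chromosome 8 (top) and the other chromosomes (bottom), with the 8 genes marked by vertical lines and each median by a dashed line. Junb (0.02) and Ier2 (0.08) lie left of the chromosome 8 median of 0.27, Jun (-0.61), Egr1 (-0.47) and Fosb (-0.46) lie in the left tail of the other chromosomes, and Atf3 (0.35) lies in the right tail.

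Other proteins that form AP-1 or related dimers showed no call. Of 15 listed, 14 were measured, and in line 3 none was called by limma. At an unadjusted limma p under 0.05, 2 were higher and 0 lower, against 5.8% and 5.76% of all genes. The median log2 difference of the 14 was 0.00188. Jund, the Jun family protein that is made steadily in most cells, read 11.47 in line 3, against 11.26 in line 1, 11.40 in line 2 and 11.31 in the clone, and it lies on chromosome 8. Atf5 was 0.34 higher in line 3 (limma, Benjamini-Hochberg adjusted p = 0.275), and Fosl2, a Fos family protein, differed by -0.16. Against the clone the median of the 14 genes was 0.01, and Jdp2, a repressor that dimerizes with Jun, had the largest positive difference among the bright ones, 0.31 (limma, adjusted p = 0.856).

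Of 40 other immediate early genes, all were measured, and in line 3 limma called 1 higher and 1 lower, against 0.159% and 0.302% of all genes. Btg2, an antiproliferative gene induced by p53 and by growth factors, rose in line 3: it read 10.04 there, against 9.29 in line 1, 9.42 in line 2 and 9.22 in the clone (log2 difference 0.73 ± 0.10 SE, limma, Benjamini-Hochberg adjusted p = 0.0412). Sgk1, a kinase induced by serum and glucocorticoids, fell in line 3, to 10.97, against 11.98 in line 1, 11.70 in line 2 and 11.75 in the clone (log2 difference -0.84 ± 0.12 SE, limma, adjusted p = 0.0472). Both also lost the call, as Jun did, when any 1 of the other arrays was left out (limma, adjusted p from 0.348 to 0.597), as did every gene, while their log2 differences were 0.68 to 0.78 for Btg2 and -0.89 to -0.75 for Sgk1.

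Phlda1, which is induced by growth factors, read 9.30 in line 3, against 8.59 in line 1, 8.44 in line 2 and 8.19 in the clone (limma, adjusted p = 0.0662), and Cited2, a coactivator partner, differed by -0.46 (limma, adjusted p = 0.0947). The median log2 difference of the 40 genes in line 3 was -0.02. Against the clone none of the 40 was called by limma, while 6 (all higher) had an unadjusted p under 0.05, against 3.46% of all genes that were higher at that p. All 3 lines were above the clone for 19 of the 40 (47.5%), against 29.9% of bright genes, and below it for 6 (15%), against 21.4% of bright genes. Gadd45b, a growth arrest and stress gene, had the smallest unadjusted p of these, 0.00484, with a log2 difference of 0.43 ± 0.10 (SE; limma, adjusted p = 0.856).

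Of 25 listed kinases and factors that act upstream of the immediate early genes, 21 were measured. In line 3 none was called by limma, and 1 was lower at an unadjusted p under 0.05, against 5.76% of all genes. The bright ones ranged in line 3 from -0.14 for Map2k2, an ERK kinase, to 0.16 for Creb1, which binds cyclic AMP response elements. None was called for the lines against the clone or for line 1, where 1 was higher at an unadjusted p under 0.05. The largest positive differences of the lines from the clone among the bright ones were 0.35 for Elk3, a partner of serum response factor, and 0.21 for Map3k1, a kinase upstream of JNK (limma, adjusted p = 0.856 and 0.861). Elk3 read 7.38 in line 3, 7.80 in line 1 and 7.41 in line 2, against 7.18 in the clone. Serum response factor itself, Srf, which binds the CArG box and was counted with the immediate early genes, read 8.97 in line 3, against 8.97 in line 1, 9.02 in line 2 and 9.09 in the clone. Of the 10 genes of ERK feedback none was called by limma. At an unadjusted limma p under 0.05, 3 were higher and 0 lower in line 3, against 5.8% and 5.76% of all genes. The median of the 10 in line 3 was 0.08. Spry4, an inhibitor of receptor tyrosine kinase signalling, differed by 0.48 and Etv4, an ERK-induced factor, by 0.32 in line 3 (limma, adjusted p = 0.297 and 0.2). Egr1 was lowest in line 3 while Spry4 and Etv4 were highest there. Spry1 (-0.14) and Ier5l (-0.13) were lowest in line 3, as Egr1 was. Line 3 was the highest array for 5 of the 10 feedback genes and the lowest for 2, against 25.7% and 28.8% of all genes.

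**Figure D4:**
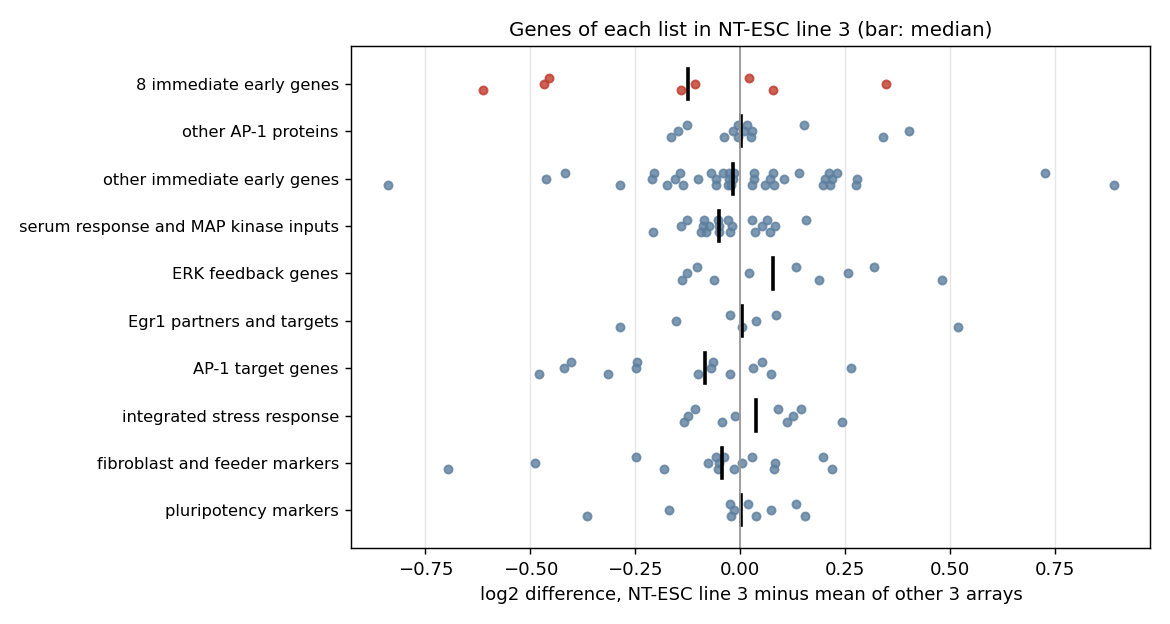
Log2 difference of NT-ESC line 3 minus the mean of the other 3 arrays (horizontal axis) for each measured gene (points) of the 8 immediate early genes and of 9 other lists (rows), with the median of each list as a bar. The 8 genes span -0.61 to 0.35 with a median of -0.12, and the list medians lie near 0, from -0.08 for AP-1 target genes to 0.08 for ERK feedback genes.

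Genes known to respond to AP-1 or Egr1 were described in the same way. Of 15 listed AP-1 targets 14 were measured, and none was called in line 3 by limma. At an unadjusted limma p under 0.05, 1 was higher and 5 lower, against 5.8% and 5.76% of all genes. Line 3 was the lowest array for 7 of the 14, against 28.8% of all genes, and their median was -0.08. Ccnd1, which encodes cyclin D1, read 9.84 in line 3, against 10.29 in line 1, 10.32 in line 2 and 10.36 in the clone (limma, adjusted p = 0.0699). The metallothionein gene Mt1 differed by -0.42 (limma, adjusted p = 0.0891), although it lies on chromosome 8. The highest differences in line 3 among the bright AP-1 targets were 0.26 for Hmox1, also on chromosome 8, and 0.07 for Mmp9. Vim is counted both here and with the fibroblast markers.

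Of the 7 partners and targets of Egr1 none was called by limma in line 3. At an unadjusted limma p under 0.05, 1 was higher and 1 lower, against 5.8% and 5.76% of all genes. Nab1, a corepressor that binds Egr proteins, read 8.59 in line 3, against 7.98 in line 1, 8.05 in line 2 and 8.19 in the clone (limma, adjusted p = 0.0947). The growth factor gene Pdgfa differed by -0.29. Of 10 genes of the integrated stress response, the pathway that induces Atf3 through Atf4, none was called in line 3 by limma. At an unadjusted limma p under 0.05, 1 was higher, against 5.8% of all genes, and the median of the 10 was 0.04. Atf4 read 11.83 in line 3, against 11.81 in line 1, 11.80 in line 2 and 11.90 in the clone.

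For the 3 members with a range of at least 0.5, the genes with the most similar course over the 4 arrays were found among bright genes, by the Euclidean distance between levels centred on each gene's mean. Nearest to Jun were Sall1 (distance 0.03), Dennd4a (0.05) and Ifitm3 (0.06). Sall1, a zinc finger factor, read 8.52 in line 3, against 9.20 in line 1, 9.13 in line 2 and 9.08 in the clone, although it lies on chromosome 8. Nearest to Fosb were Cbr3 (0.08), Neto2 (0.09, also on chromosome 8) and Smarca1 (0.10), and nearest to Egr1 were Gtsf1 (0.07), Epop (0.12) and Trh (0.13). None of the 8 members was among the 3 nearest genes of another member. With only 3 genes taken from 11747 bright ones, this does not show that the members had separate courses.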

How the data were processed

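Per the labels' protocols, biotinylated cRNA was made from total RNA for Affymetrix arrays. The deposited values are on a log2 scale; the software of normalization and summarization is not given in the sources used here. On each array 2 raised to the deposited value averaged 1, so this number was read as a log intensity divided by the mean of its array, and multiplied by 7 to give a level. Values were deposited to a step that is 0.00693 at level 10. The platform annotation named 1 gene for 34945 probe sets, and symbols and chromosomes came from the RefSeq table (GRCm38.p6). For each of 18193 genes the probe set of highest mean level was kept. R 4.3.3 and limma 3.58.1 gave two-sided tests with lmFit and eBayes, called at a Benjamini-Hochberg adjusted p under 0.05, with 2 residual degrees of freedom. The p-values measure the spread between these arrays, which may be technical. The fit for line 3 was tested on simulated data of 18193 genes, with 200 genes changed and 5 runs. It recovered 8.06% of changes of 0.5 log2, 63.0% of 1 and 90.3% of 2, with 1.6 false calls per run. These figures hold for the simulated data only and are no error rate of the calls made on the real arrays. The members and lists were chosen with earlier results of these data known. Genes named from other lists are those with the highest and lowest differences among bright genes, or called; Srf was named after its values were seen. Alternatives covered the assumed mean, the scale, normalization, probe set choice, dim genes, the prior variance, chromosome 8 and each array.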

Additional observations from a re-analysis of the deposited data

How the results depend on the processing

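The number of genes called for line 3 against the other arrays, 84, was 15 with the deposited log2 values as given, 127 after quantile normalization, 47 with all probe sets fitted, 168 with the mean of probe sets, 153 with a prior variance by level and 51 without chromosome 8; it was 0 to 0 when an array was left out, which leaves 1 residual degree of freedom. Jun kept its call in 7 of 13 alternatives and lost it with the deposited values (limma adjusted p = 0.204), with all probe sets, without chromosome 8 and without each other array, always with the same sign; its adjusted p ranged from 0.0311 to 0.597. None of the other 7 members was called for line 3, and none of the 8 for the lines against the clone, under the alternatives run. Btg2 and Sgk1 lost their call in the same 6 alternatives as Jun. The 7 alternatives in which Jun, Btg2 and Sgk1 kept it include the assumed means of 6 and 7.86. These scale every value alike, so they could not change a call. Phlda1 was called in 3 alternatives (limma adjusted p = 0.0443 after quantile normalization, 0.0426 with the mean of probe sets and 0.0497 with a prior variance by level), and Mt1 (0.0338) and Ccnd1 (0.0449) with the last of these. No gene was called for the lines against the clone, line 1 or line 2 under any alternative run. Leaving out an array turned signs: for the lines against the clone the log2 difference ranged from -0.28 to 0.0600 for Jun, -0.0443 to 0.0162 for Fos, -0.0258 to 0.173 for Atf3, -0.41 to 0.0907 for Sgk1, -0.0569 to 0.0550 for Nab2 and -0.0836 to 0.0888 for Pdgfa, and for line 3 against the others from -0.0154 to 0.0722 for Junb and -0.0478 to 0.165 for S100a4. With the mean of probe sets Mafg (0.0166) and Pdgfa (0.0258) turned sign against the clone. The cause was not tested. No paired analysis was possible because 1 iPSC array, that of the donor clone, stood against all 3 NT-ESC lines. The alternatives for genes that are not members were added after the data were seen. The number of arrays limits the precision.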

Other observations

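Of the 16 fibroblast and feeder markers, none was called in line 3 by limma. At an unadjusted limma p under 0.05, 3 were lower and 0 higher, against 5.76% and 5.8% of all genes. The lowest differences among the bright ones were those of Tagln and Acta2. Tagln, an actin-binding protein of smooth muscle and fibroblasts, read 9.40 in line 3, against 10.22 in line 1, 10.23 in line 2 and 9.82 in the clone (limma, Benjamini-Hochberg adjusted p = 0.134). Acta2, smooth muscle actin, read 9.80 in line 3, against 10.40 in line 1, 10.28 in line 2 and 10.18 in the clone (limma, adjusted p = 0.106). The highest were those of Lox, which crosslinks collagen, and S100a4, at 0.08 each (limma, adjusted p = 0.869 and 0.931). The median of the 16 was -0.04, and line 3 was the highest array for 2 of them and the lowest for 4, against 25.7% and 28.8% of all genes.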
